A study of Mus musculus with 12 samples.

Results

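The hypoxia response genes described here are 10 genes, Hif1a, Egln1, Egln3, Vegfa, Adm, Ndrg1, Bnip3, Ankrd37, Ddit4 and Car9, matched exactly by gene name among the 55335 genes counted in this series. All 10 were found and all 10 had enough reads for the test, which covered 22635 genes. They were read in mouse muscle stem cells (MuSCs, the Pax7-expressing stem cells that lie between a myofiber and its basal lamina) as a check for oxygen limitation under a compression device. The cells were sorted as ZsGreen-positive cells from hindlimb muscle of adult Pax7-ZsGreen mice, in which the Pax7 promoter drives the reporter, and all 4 groups carry this transgene. F cells were lysed when freshly isolated, without culture. 2d-U cells were cultured uncompressed for 2 days on Matrigel- and fibronectin-coated plastic in growth medium with serum, FGF and chicken embryo extract. 5d-U cells were kept in this way for 5 days, and 2+3d-C cells were cultured uncompressed for 2 days and then for 3 days beneath a silicone (PDMS) film whose pillars hold it close above the dish. The film is backed by a cover glass, and no oxygen measurement was used here.

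Each group held 3 RNA-seq libraries. Reads on genes numbered from 24577250 to 32782757 in F, from 20329459 to 45003574 in 2d-U, from 20953163 to 30593562 in 5d-U and from 12540745 to 62424851 in 2+3d-C. The labels do not tie libraries to mice or cultures, so p-values measure the spread between these libraries only, which may be technical in part. Levels are given as RPKM, reads scaled to exon length and to library size (with TMM factors), and differences as log2 fold changes from 1 edgeR quasi-likelihood fit of all 12 libraries, each with its standard error (SE) and its p adjusted over all genes tested. A gene is called where the adjusted p is under 0.05. In bulk RNA, fewer cells of a type and less RNA per cell cannot be told apart.

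As background, the hypoxia-inducible factor HIF is a dimer of an oxygen-labile α subunit, such as the HIF-1α encoded by Hif1a, with a stable partner, ARNT. In oxygenated cells, prolyl hydroxylases mark the α subunit for ubiquitination by the von Hippel-Lindau complex, and when oxygen is short the subunit escapes, enters the nucleus and binds sites with the core ACGTG or GCGTG near its target genes. The oxygen switch therefore acts mainly on the protein. Target transcripts such as Vegfa, Adm, Ndrg1, Ddit4, Ankrd37, Egln3, Car9 and Bnip3 report HIF activity. Several of these genes also answer to other signals: Ndrg1 and Ddit4 to stress and glucocorticoids, Vegfa and Adm to growth factors and inflammation. MuSCs reside beside capillaries in muscle and are known to express HIF subunits.

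4 libraries stood apart before any comparison. Reads on 2106 autosomal genes of families that are silent in muscle, such as olfactory receptors, keratin-associated proteins and taste receptors, reached 5.03 reads per kb of exon in F replicate 4, 7.13 in F replicate 5, 3.81 in 5d-U replicate 1 and 0.634 in 5d-U replicate 6, against at most 0.220 in the other 8. A limit of 0.5 was used to name these libraries. 5d-U replicate 1 also had 5.85% of its reads on mitochondrial genes, the highest share of the 12 libraries. The same density over the exons of the members would give at most 14.4% of their reads in these libraries, except for Car9, where it would give 77.2% in F replicate 4, 68.5% in F replicate 5 and 146% in 5d-U replicate 1. The 3 compressed libraries also stood apart from the uncompressed cultures in markers of endothelial, glial, erythroid and fibroadipogenic cells, which are given with their values after the gene lists; the origin of these transcripts in cells sorted and then cultured for 5 days was not tested, and every value of 2+3d-C is one of libraries with this content. The part of the silent family reads in each result was measured by subtracting such reads, by a term for these libraries and by leaving all 4 out.

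After 3 days of compression the 10 genes did not move as a group. Ndrg1, Adm, Vegfa and Hif1a stood above 5d-U in the compressed cells, Egln3 stood below it, and Bnip3, Ankrd37, Egln1, Ddit4 and Car9 did not pass the test. That is 4 members higher and 1 lower of 10, where 9.14% of all genes tested were higher and 13.4% lower. The median log2 fold change of the members was −0.45, and that of all genes tested was −1.05. Without TMM scaling the median of all genes was −1.21, and the same 5 members were called in the same directions. The median of all genes moved with the genes and libraries used. It was −0.24 with silent family reads subtracted, −0.11 with a term for the 4 libraries and 0 without them. Where only genes averaging 5 CPM or more were tested, it was −0.000131. The members' median is not given for these fits, so their place relative to all genes in them is not shown.

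**Figure D1:**
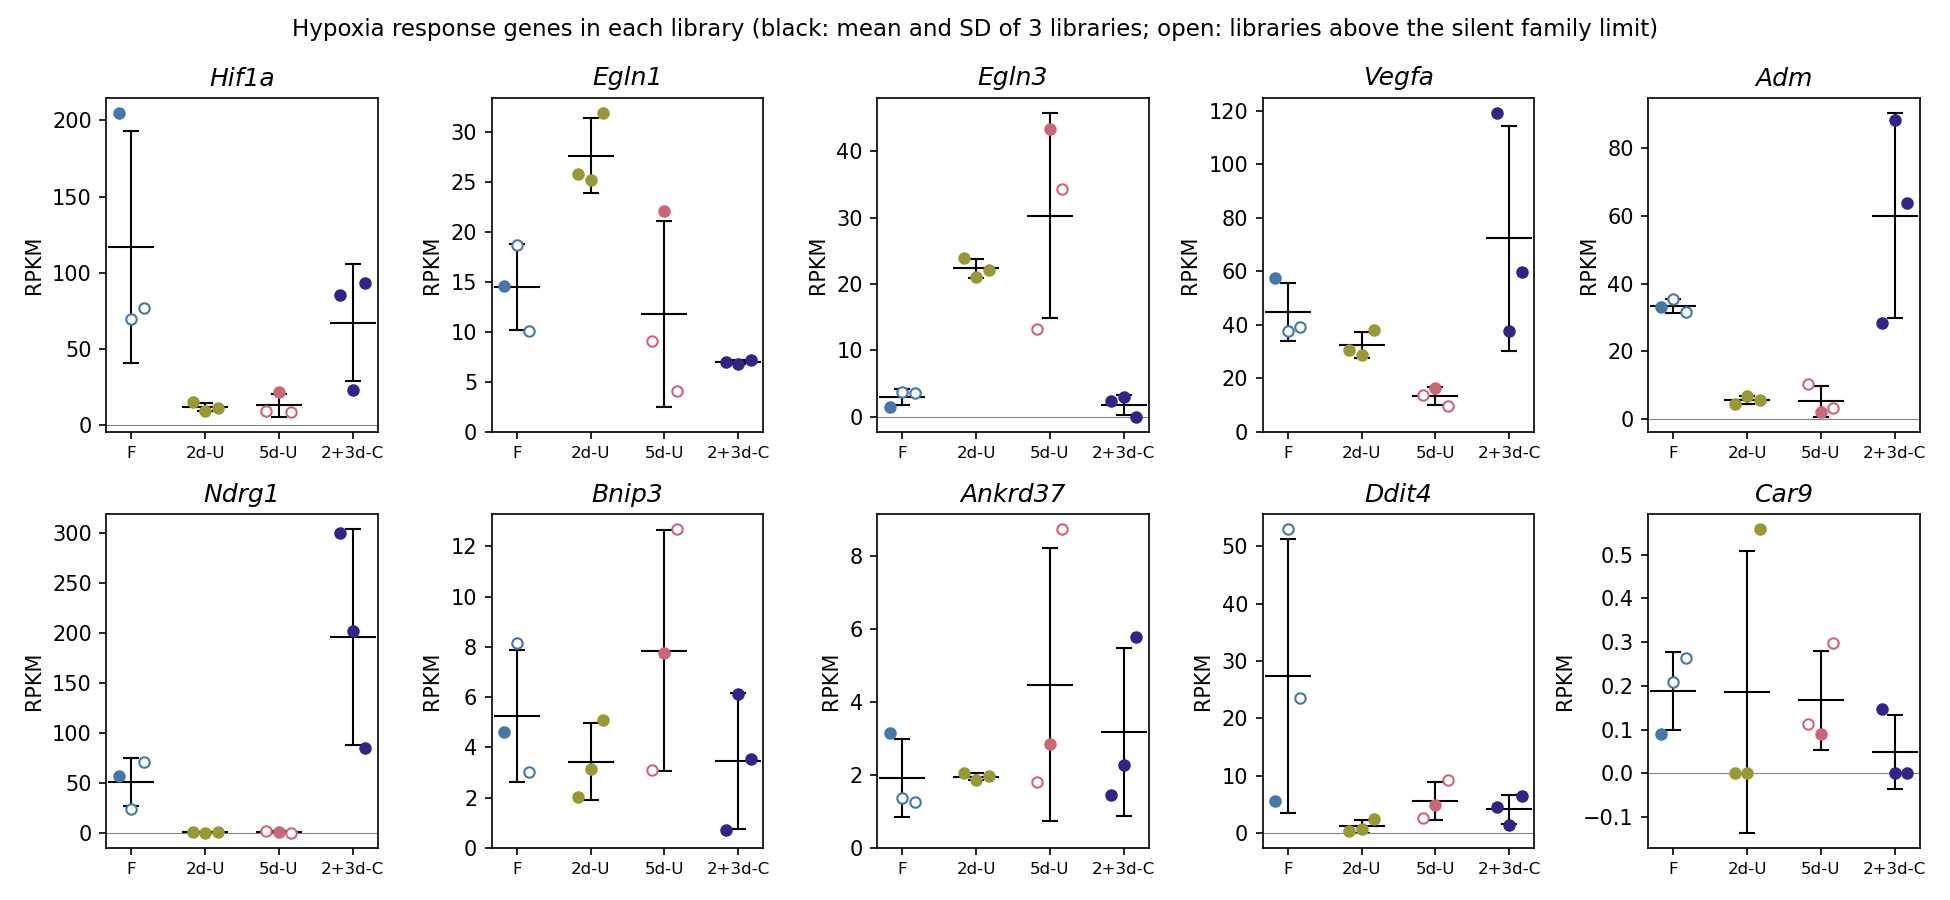
RPKM of each hypoxia response gene (vertical axis, linear, 1 scale per gene) in the 12 libraries, by group; each point is 1 library, open points are the 4 libraries above the silent family limit, and black bars are the mean and SD of 3 libraries. Ndrg1 lies between 84.6 and 299.8 RPKM in the 2+3d-C libraries and at or below 1.64 in every uncompressed culture, whereas Bnip3, Ankrd37 and Ddit4 overlap between 2+3d-C and 5d-U.

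Among the genes of the oxygen sensor itself, the transcript of the regulated subunit rose and that of an inducible hydroxylase fell. Hif1a stood at 204.6, 69.4 and 77.1 RPKM in F, at 15.3, 9.76 and 11.3 in 2d-U, at 9.21, 21.8 and 8.78 in 5d-U and at 85.7, 23.3 and 93.3 in 2+3d-C. The lowest compressed library, replicate 5, lay just above the highest 5d-U library, so these groups did not overlap, while the compressed and fresh libraries did. Hif1a exceeded 5d-U by a log2 fold change of 2.35 (SE 0.60, adjusted p = 0.0119) and 2d-U by 2.48 (SE 0.60, adjusted p = 0.00845). With a term for the 4 libraries named above, the difference from 5d-U was 1.56 with an adjusted p of 0.0952, and without these libraries 1.63 with an adjusted p of 0.288. The order of mean levels was F, 2+3d-C, 5d-U and 2d-U; neither F and 2+3d-C nor 5d-U and 2d-U differed past the threshold.

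Egln3, the gene of prolyl hydroxylase PHD3, is itself a HIF target that usually climbs in hypoxia. It stood at 1.52, 3.72 and 3.53 RPKM in F, at 23.9, 21.0 and 22.1 in 2d-U, at 13.2, 43.3 and 34.3 in 5d-U and at 2.28, 2.95 and 0.0172 in 2+3d-C. All cultured uncompressed libraries were above all fresh and compressed ones, and in 2+3d-C replicate 10 the gene had 1 read. Compressed cells had less Egln3 than 5d-U, by a log2 fold change of −4.13 (SE 1.01, adjusted p = 0.00972), and less than 2d-U, by −3.69 (SE 0.99, adjusted p = 0.0151). Without that library the difference from 5d-U was −3.55 and remained called. Without the 4 libraries with silent family reads it was −4.64 with an adjusted p of 0.104, and the difference from 2d-U was −3.70 with an adjusted p of 0.0739. The call against 2d-U was also lost, at −3.74, in a fit of those 2 groups alone.

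Egln1, the gene of PHD2, the main hydroxylase of HIF-1α, was nearly equal in the compressed libraries, at 6.93, 6.79 and 7.20 RPKM. It stood at 14.6, 18.7 and 10.1 in F, at 25.8, 25.2 and 32.0 in 2d-U and at 9.12, 22.1 and 4.11 in 5d-U. The compressed libraries lay below all 2d-U and all F libraries, and inside the wide range of 5d-U. Egln1 was lower under compression than in 2d-U by a log2 fold change of −1.99 (SE 0.53, adjusted p = 0.0146), with 5 members called in that comparison, where 16% of all genes tested were higher and 8.63% lower. The call of Egln1 was lost with a replicate block, at an adjusted p of 0.585. Against 5d-U the log2 fold change was −0.76 with a 95% interval from −1.86 to 0.35, and without 5d-U replicate 2 it was 0.069.

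The members that encode secreted factors were both higher under compression than in 5d-U. Vegfa, the main growth factor of blood vessels, stood at 57.3, 37.8 and 39.1 RPKM in F, at 30.5, 28.7 and 37.9 in 2d-U, at 13.6, 16.4 and 9.78 in 5d-U and at 119, 37.8 and 59.8 in 2+3d-C. 5d-U was the low group: its 3 libraries lay below the other 9, and 2+3d-C replicate 5 was no higher than the highest 2d-U library. Vegfa differed from 5d-U by a log2 fold change of 2.45 (SE 0.45, adjusted p = 0.00174), a call lost with a replicate block. From 2d-U it differed by 1.16 (95% interval 0.23 to 2.09, adjusted p = 0.0660). This second difference was 0.58 without 2+3d-C replicate 4 and 1.47 without replicate 5, where it was called. It was also called where only genes averaging 5 CPM or more were tested. Without the 4 libraries with silent family reads, the difference from 5d-U was 2.14 with an adjusted p of 0.130.

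Adm encodes adrenomedullin, a peptide that widens vessels. It was measured at 33.0, 35.6 and 31.7 RPKM in F, at 4.32, 6.82 and 5.68 in 2d-U, at 10.5, 2.18 and 3.20 in 5d-U and at 28.3, 88.4 and 63.7 in 2+3d-C. Every compressed library was above every uncompressed culture, and the fresh libraries lay within the compressed range. Adm exceeded 5d-U by a log2 fold change of 3.51 (SE 0.63, adjusted p = 0.00135) and 2d-U by 3.42 (SE 0.63, adjusted p = 0.00136). With 1 library left out, Adm exceeded 5d-U by 3.12 to 4.47, and in the other alternative fits by 2.79 to 4.79. Against either culture it was called in 21 of the 22 alternative fits, those without the 4 libraries included, and lost with a replicate block, at an adjusted p of 0.0865 against 5d-U and 0.284 against 2d-U.

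Against 5d-U and against 2d-U, Ndrg1 had the largest log2 fold change of the 10 members. Its product is a cytoplasmic protein of the NDRG family linked to stress, differentiation and lipid traffic, and its transcript is induced by hypoxia, by metal chelation and by glucocorticoids. Ndrg1 stood at 56.6, 24.2 and 71.0 RPKM in F, at 1.05, 0.202 and 0.860 in 2d-U, at 1.64, 0.619 and 0.430 in 5d-U and at 299.8, 201.6 and 84.6 in 2+3d-C. All compressed libraries were above all others, fresh included, and the 6 uncompressed cultures were the 6 lowest. Ndrg1 exceeded 5d-U by a log2 fold change of 7.77 (SE 0.88, adjusted p = 4.63e-05), which is 218-fold, and 2d-U by 8.11 (SE 0.89, adjusted p = 3.24e-05). It was called against 5d-U in all 22 alternative fits, with a log2 fold change between 7.31 and 8.53. In reads, Ndrg1 had 105461, 11009 and 12215 in the compressed libraries and between 34 and 367 in the uncompressed cultures. Among the genes tested, its RPKM ranked between the 97.1 and 99.4 percentiles in 2+3d-C, between 92.2 and 97.6 in F and between 44.8 and 59.2 in the uncompressed cultures.

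The other 4 members showed no difference between 2+3d-C and 5d-U that passed the test. Bnip3 encodes a mitochondrial protein that marks mitochondria for removal, and its promoter is a standard HIF target. It stood at 4.63, 8.14 and 3.02 RPKM in F, at 2.04, 3.15 and 5.09 in 2d-U, at 3.09, 7.76 and 12.7 in 5d-U and at 0.712, 6.13 and 3.55 in 2+3d-C. The groups overlapped throughout, with the lowest and a middling value both in the compressed group. Its log2 fold change against 5d-U was −1.19 with a 95% interval from −2.90 to 0.53, and no alternative fit called it. With 1 library left out it ran from −1.89 without 2+3d-C replicate 5 to −0.67 without 5d-U replicate 6.

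Ankrd37, an ankyrin repeat gene that is among the most regular HIF targets across cell types, stood at 3.14, 1.36 and 1.25 RPKM in F and at 2.04, 1.86 and 1.96 in 2d-U. It stood at 1.81, 2.86 and 8.74 in 5d-U and at 1.45, 2.28 and 5.79 in 2+3d-C. All 4 groups overlapped, and the highest value came from 5d-U replicate 6. The log2 fold change against 5d-U was −0.49 with a 95% interval from −2.34 to 1.36, and without 5d-U replicate 6 it was 0.44. Ankrd37 had from 29 to 275 reads in a library, and this interval allows a change of more than 2-fold in either direction.

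Ddit4 encodes REDD1, an inhibitor of mTORC1 that links low oxygen and stress to growth control. It stood at 5.59, 52.9 and 23.5 RPKM in F, at 0.366, 0.804 and 2.54 in 2d-U, at 2.63, 4.91 and 9.23 in 5d-U and at 4.57, 1.45 and 6.48 in 2+3d-C. The 2 highest values were those of the fresh libraries with silent family reads, and the compressed libraries lay within or below the range of 5d-U. The log2 fold change against 5d-U was −0.41 with a 95% interval from −2.27 to 1.44; over the alternative fits it ran from −2.63 with a replicate block to 0.39 with a term for the 4 libraries, and with 1 library left out from −0.88 without 2+3d-C replicate 10 to 0.15 without 5d-U replicate 6, and no fit called it.

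Car9 encodes carbonic anhydrase 9, a surface enzyme that is nearly silent in oxygenated tissue and strongly induced by HIF-1. It had 18, 0 and 0 reads in compressed libraries, while 5d-U had 6, 6 and 14, 2d-U had 0, 0 and 58, and F had 5, 15 and 24. Most reads of 2d-U thus lay in 1 library, and 2 of the 3 compressed libraries had none, which allows up to 0.239 CPM (reads scaled to library size) in replicate 5 and 0.128 in replicate 10, taking 3 reads as the limit. SMART-seq reads carry no molecular identifiers, so these limits cover counting error only. A difference in Car9 was not detected, and its 95% interval against 5d-U ran from −5.91 to 2.79.

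The promoters of 5 members are printed to show how the letters of the HIF core site are spread over genes that rose, fell or were not called. RefSeq (GRCm38.p6) gave windows of 300 bases, from 250 before to 50 after a transcript start, for 9 of the 10 members, 10 windows in all; a window of Ndrg1 was not analysed here. Capitals mark ACGTG or GCGTG on either strand, so that a match on the other strand appears with its complement. In Hif1a and Bnip3 a pair of overlapping matches, 1 per strand, also forms the E-box core that other factors bind.
Adm (higher against 5d-U), chr7:110627407-110627706, plus strand: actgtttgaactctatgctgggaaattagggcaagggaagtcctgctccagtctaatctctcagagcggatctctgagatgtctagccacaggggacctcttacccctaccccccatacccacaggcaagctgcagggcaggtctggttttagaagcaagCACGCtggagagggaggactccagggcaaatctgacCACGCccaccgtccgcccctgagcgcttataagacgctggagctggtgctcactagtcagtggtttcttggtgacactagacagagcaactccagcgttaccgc
Hif1a (higher), chr12:73907617-73907916, plus strand: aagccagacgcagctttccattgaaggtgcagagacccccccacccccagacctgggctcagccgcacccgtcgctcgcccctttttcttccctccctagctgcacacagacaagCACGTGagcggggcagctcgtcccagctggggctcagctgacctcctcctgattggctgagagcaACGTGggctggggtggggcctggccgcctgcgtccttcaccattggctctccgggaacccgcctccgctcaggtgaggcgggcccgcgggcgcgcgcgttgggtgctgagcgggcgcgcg
Egln3 (lower), chr12:54203825-54204124, minus strand: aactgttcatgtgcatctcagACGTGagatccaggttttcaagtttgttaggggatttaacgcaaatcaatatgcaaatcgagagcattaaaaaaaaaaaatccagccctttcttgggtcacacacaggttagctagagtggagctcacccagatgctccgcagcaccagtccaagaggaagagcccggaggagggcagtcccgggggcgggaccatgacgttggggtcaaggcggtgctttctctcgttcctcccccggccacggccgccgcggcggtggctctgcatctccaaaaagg
Bnip3 (not called), chr7:138909457-138909756, minus strand: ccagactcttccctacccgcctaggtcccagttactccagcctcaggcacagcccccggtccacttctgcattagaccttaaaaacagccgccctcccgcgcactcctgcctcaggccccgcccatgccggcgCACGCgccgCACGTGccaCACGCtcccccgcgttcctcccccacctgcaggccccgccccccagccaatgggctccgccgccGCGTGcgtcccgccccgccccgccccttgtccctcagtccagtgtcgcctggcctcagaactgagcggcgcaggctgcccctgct
Ankrd37 (not called), chr8:45999801-46000100, minus strand: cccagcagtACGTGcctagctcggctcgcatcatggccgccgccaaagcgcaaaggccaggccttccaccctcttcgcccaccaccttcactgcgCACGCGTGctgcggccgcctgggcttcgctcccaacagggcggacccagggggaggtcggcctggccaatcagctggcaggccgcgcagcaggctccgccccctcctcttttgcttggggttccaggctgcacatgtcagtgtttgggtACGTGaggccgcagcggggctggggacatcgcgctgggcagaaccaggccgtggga

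Bnip3 held the most matches, 5, followed by Ankrd37 with 4, and neither was called between 2+3d-C and 5d-U. Adm held 2 matches, both of GCGTG, and Egln3 held 1, of ACGTG, 229 bases before its start. 9 of the 10 members' windows held at least 1 match of either motif, as did 43.8% of all 32851 windows in the table; ACGTG alone was in 19.6% and GCGTG in 32.4% of all windows. Of the 2 Vegfa windows, 1 at chr17:46032328-46032627 held no match, and the other, at chr17:46025114-46025413, held 1 of each motif. A match is a description of letters, not of binding, and no match says only that these letters are not in this window.

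Against the fresh cells, no member was called in 2+3d-C by edgeR, where 1.94% of all genes tested were higher and 4.47% lower. At an unadjusted p under 0.05, Ndrg1 was higher by a log2 fold change of 1.95 (95% interval 0.50 to 3.39, adjusted p = 0.0867) and Ddit4 lower by −2.71 (95% interval −4.67 to −0.74, adjusted p = 0.0818). DESeq2 called 1 member in this comparison, Ddit4, at −2.96, and edgeR called it without F replicate 1, at −3.30 (adjusted p = 0.0408). Every compressed library had more Ndrg1 and less Egln1 than every fresh library, and the other members overlapped. Of all genes tested, 8.79% were likewise higher and 18.3% lower without overlap. The intervals of Hif1a, from −2.02 to 0.43, and of Vegfa, from −0.23 to 1.62, allow changes of more than 2-fold, so that equal levels were not shown.

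The uncompressed cultures were also compared with the fresh cells. In 2d-U against F, Hif1a, Ndrg1, Adm and Ddit4 were lower and Egln3 was higher, where 33.3% of all genes tested were lower and 10.6% higher. In 5d-U against F, Hif1a, Vegfa, Ndrg1 and Adm were lower and Egln3 was higher, with a background of 8.9% lower and 11.6% higher. Ndrg1 fell by 6.16 on the log2 scale in 2d-U (SE 0.82, adjusted p = 0.000158) and by 5.82 in 5d-U (SE 0.81, adjusted p = 0.000303). Egln3 rose by 2.93 in 2d-U (SE 0.96, adjusted p = 0.0282) and by 3.37 in 5d-U (SE 0.98, adjusted p = 0.0228), and each of these calls was lost when any 1 of the F libraries was left out, with differences between 2.53 and 3.15 in 2d-U and between 2.60 and 3.59 in 5d-U; the latter was also lost without 5d-U replicate 2, at 3.04. The call of Ddit4 in 2d-U against F, −4.46 (adjusted p = 0.00446), was lost with a term for the 4 libraries, at −3.27, and without them, at −2.16 (adjusted p = 0.311). In 5d-U against F, where it was not called, 5 of the 22 alternative fits called it. Without F replicate 1 it was at −3.27 (adjusted p = 0.0231). The other calls came from DESeq2, no filter on low counts, a mean of at least 5 CPM and silent family reads subtracted. The call of Vegfa in 5d-U against F, −1.75 (adjusted p = 0.0109), was lost without 5d-U replicate 6, at −1.56 (adjusted p = 0.0577). Without the 4 libraries with silent family reads, which leaves F and 5d-U with 1 library each, 3 members were called in 2d-U against F, where 404 of 19286 genes were higher and 1291 lower, and 0 in 5d-U against F, where 54 were higher and 119 lower. These comparisons share the F libraries with each other, and their 2d-U and 5d-U libraries are those that 2+3d-C was compared with, so that a low value in culture enters both kinds of comparison with opposite sign. The values are given side by side only.

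Between the uncompressed cultures at 2 and 5 days no member was called by edgeR, where 1.87% of all genes tested were higher in 5d-U and 0.243% lower. 3 members had an unadjusted p under 0.05: Vegfa and Egln1 were lower by −1.29 and −1.23 and Ddit4 higher by 2.17, with adjusted p-values between 0.101 and 0.122. DESeq2 called Vegfa, at a log2 fold change of −1.51.

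**Figure D2:**
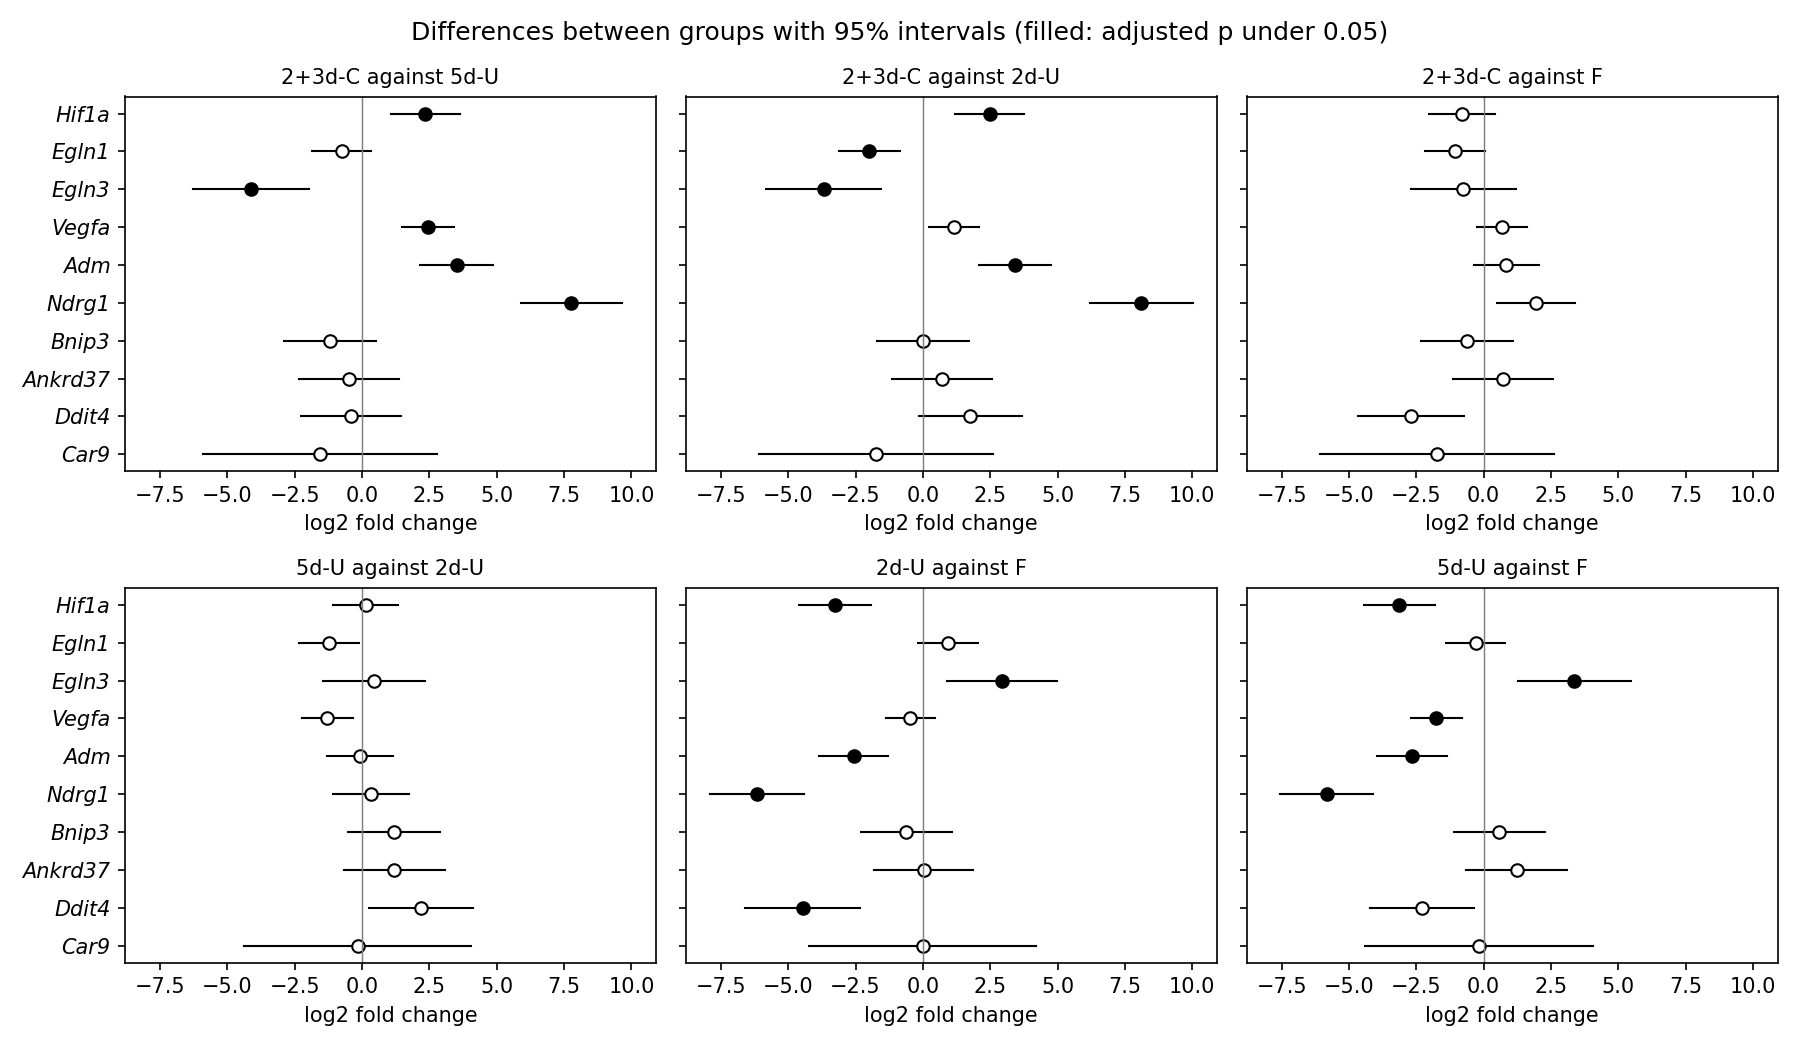
Log2 fold change (horizontal axis) of the 10 genes (vertical axis) in the 6 comparisons between groups, with 95% intervals of 1 edgeR fit of 12 libraries; filled points have an adjusted p under 0.05. Ndrg1, Adm, Vegfa and Hif1a lie right of 0 and Egln3 left of it in 2+3d-C against 5d-U, and no point is filled in 2+3d-C against F or in 5d-U against 2d-U.

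The makeup of the members' reads also differed between groups. Ndrg1 gave from 36.7% to 72.9% of all reads on the 10 genes in 2+3d-C, from 16.3% to 37.8% in F, from 0.380% to 1.74% in 2d-U and from 0.944% to 4.84% in 5d-U. Egln3 and Egln1 together held a large part in culture, with Egln3 at 13.4% to 34.2% and Egln1 at 5.54% to 26.2% of the uncompressed libraries, and Egln3 was at or below 0.430% in every compressed library. Hif1a gave from 36.7% to 61.5% in F. Summed over the 10 genes, the level was 3083, 1824 and 1522 CPM in 2+3d-C, 1961, 979 and 1238 in F and between 223 and 438 in the uncompressed cultures.

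The rest of the HIF machinery was mixed. Of 19 genes of HIF subunits, hydroxylases, the von Hippel-Lindau complex and coactivators, 5 rose above 5d-U under compression and 4 fell below it, beside 9.14% and 13.4% of all genes tested. Their median log2 fold change was −0.35, where all genes tested had −1.05. Higher were Hif1a, Arnt (the dimer partner; 3.50, SE 0.52, adjusted p = 0.000387), Epas1 (HIF-2α; 5.05, adjusted p = 0.0258), Os9 (1.86, adjusted p = 0.00425) and the coactivator gene Crebbp (2.17, adjusted p = 0.00814). Lower were Egln3, the elongin and cullin complex genes Elob (−2.37, adjusted p = 0.00922) and Rbx1 (−1.72, adjusted p = 0.0385), and Ube2m (−1.96, adjusted p = 0.00987), which encodes an enzyme that activates cullins.

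Arnt stood at 32.2, 8.96 and 21.1 RPKM in 2+3d-C, at 1.84, 2.52 and 1.15 in 5d-U and at 18.2, 11.2 and 13.3 in F, so that the compressed libraries lay above 5d-U and around F. Epas1 was at most 0.345 RPKM in every uncompressed culture, at 4.03, 0.562 and 7.21 in 2+3d-C and at 9.80, 16.5 and 20.5 in F, where it was above every compressed library. Epas1 is also strongly expressed by endothelial cells. Vhl, which encodes the von Hippel-Lindau protein itself, and Egln2 and Hif1an, the genes of the remaining hydroxylases, were not called; Vhl was at 7.13, 5.56 and 3.87 RPKM in 2+3d-C and at 5.37, 9.44 and 6.33 in 5d-U. Cited2, a HIF target whose product competes with HIF-1α for CBP and p300, was at 354, 696 and 387 RPKM in 2+3d-C, above the other 9 libraries, with a log2 fold change of 2.68 against F (adjusted p = 0.0194), while its difference from 5d-U was 1.48 (adjusted p = 0.0646). With a term for the 4 libraries, 5 of the 19 genes were called against 5d-U in either direction, where 1276 of 22635 genes were higher and 1839 lower, and without these libraries 1, where 421 of 19286 were higher and 717 lower.

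HIF targets of glucose metabolism went both ways. Of 24 genes, 6 were higher and 10 lower under compression than in 5d-U, beside the background of 9.14% and 13.4%. Their median log2 fold change was −1.12, near the −1.05 of all genes tested. Without the 4 libraries with silent family reads, 3 were higher and 7 lower, where 421 of 19286 genes were higher and 717 lower. Those higher in the fit of all libraries were the glucose carriers Slc2a1 and Slc2a3, the early enzymes Hk2 and Pfkp, the regulator Pfkfb3 and the lactate exporter Slc16a3. Those lower were Pfkl, the enzymes from triose phosphate to lactate Tpi1, Gapdh, Pgk1, Pgam1, Eno1 and Ldha, the pyruvate dehydrogenase kinase gene Pdk3, and Gys1 and Pgm1 of glycogen metabolism. Apart from Slc2a3, Slc16a3, Eno1, Ldha and Aldoa, these genes were named after their values were seen.

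Slc16a3, whose product carries lactate out of the cell, stood at 33.2, 29.1 and 25.0 RPKM in 2+3d-C, at 1.22, 1.14 and 0.441 in 5d-U and at 15.3, 12.2 and 11.98 in F. It exceeded 5d-U by a log2 fold change of 4.96 (SE 0.56, adjusted p = 4.48e-05), and the compressed libraries were also above all fresh ones. Slc2a3, a high-affinity glucose carrier, was at 6.31, 3.92 and 3.91 RPKM in 2+3d-C and at 0.462, 0.265 and 0.203 in 5d-U, a log2 fold change of 3.93 (adjusted p = 0.000155). In contrast, Eno1, the enolase gene, was at 34.2, 107 and 64.0 RPKM in 2+3d-C, at 697, 783 and 917 in 5d-U and at 44.0, 76.2 and 33.8 in F. It lay below 5d-U by a log2 fold change of −3.54 (SE 0.49, adjusted p = 0.000201) and differed from F by 0.42 (adjusted p = 0.533).

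Ldha, which encodes the lactate dehydrogenase subunit that HIF-1 typically induces, fell by 1.78 on the log2 scale against 5d-U (adjusted p = 0.00390), from 889, 1099.8 and 1286 RPKM to 232, 455 and 266. The fresh libraries, at 203, 284 and 238 RPKM, lay around the lower compressed values. Aldoa was not called, at −0.89 (adjusted p = 0.145). Gapdh, Pgk1, Eno1, Ldha, Tpi1 and Aldoa have many processed pseudogenes in the mouse genome, and reads that map to several places were not counted, so that their levels are uncertain. Against F, 0 of the 24 genes were higher and 2 lower by edgeR, beside 1.94% and 4.47% of all genes tested, with 2 and 5 at an unadjusted p under 0.05. Without F replicate 4 both counts of calls were 0, where only 26 of 23830 genes were higher and 222 lower. They were also 0 without F replicate 5 (40 and 265 of 22743). Without F replicate 1 they were 0 and 4, where 1185 of 27750 genes were higher and 8878 lower.

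**Figure D3:**
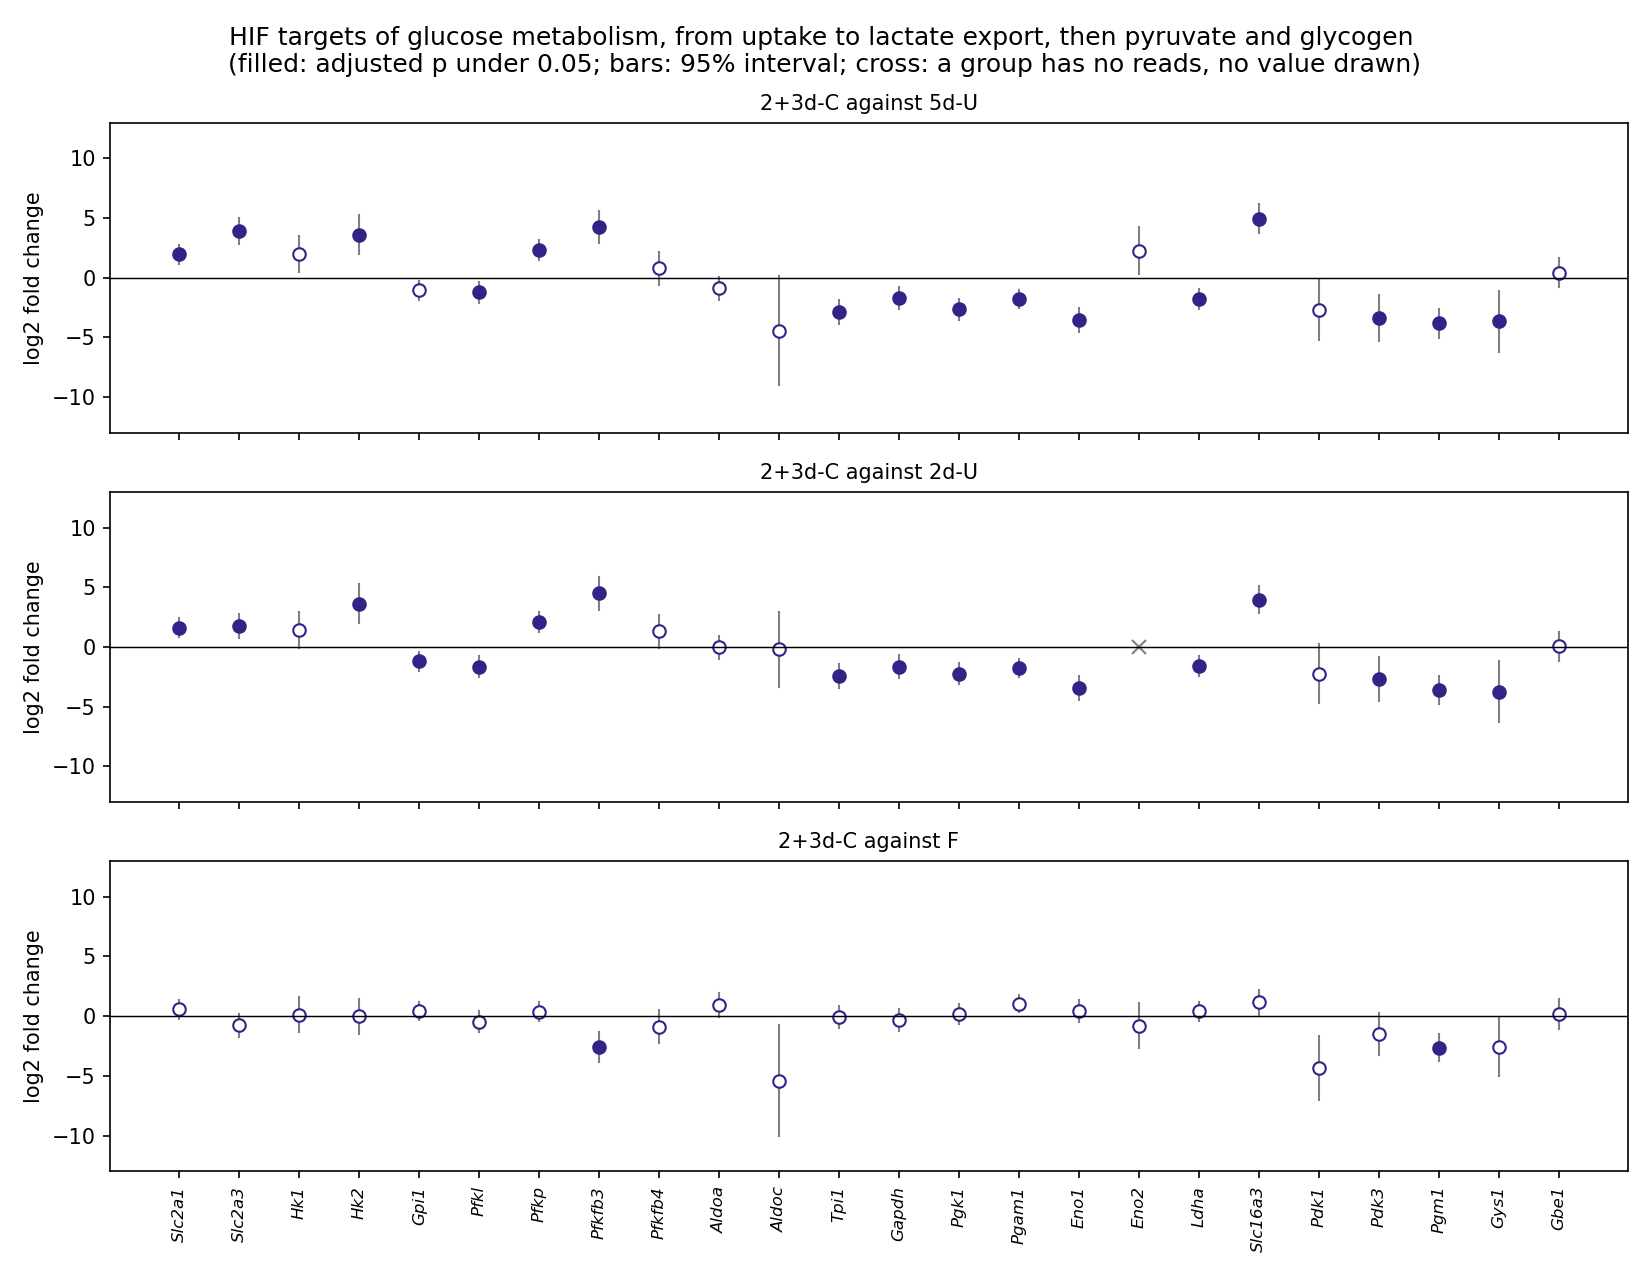
Log2 fold change (vertical axis) of 24 HIF targets of glucose metabolism in 2+3d-C against 5d-U, 2d-U and F, ordered along the pathway from glucose uptake to lactate export and then pyruvate and glycogen; bars are 95% intervals, filled points have an adjusted p under 0.05 and crosses mark genes with no reads in 1 of the groups. The carriers and Slc16a3 lie above 0 and the genes from Tpi1 to Eno1 and Ldha below 0 in both comparisons with uncompressed cultures, and most lie near 0 against F.

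Other HIF targets also went both ways. Of 42 genes listed, 41 were tested, and 16 were higher and 5 lower under compression than in 5d-U, beside 9.14% and 13.4% of all genes tested. Their median log2 fold change was 1.13, where all genes tested had −1.05, or 0 without the 4 libraries with silent family reads. Without those libraries 6 of the 41 were higher and 1 lower, where 421 of 19286 genes were higher and 717 lower. Against F, 2 were higher and 3 lower, beside 1.94% and 4.47% of all genes tested. Both counts were 0 without F replicate 4, where 26 of 23830 genes were higher and 222 lower. They were also 0 without F replicate 5 (40 and 265 of 22743). Without F replicate 1 they were 3 and 7 (1185 and 8878 of 27750). Rora, a nuclear receptor gene, was at 13.2, 18.7 and 8.72 RPKM in 2+3d-C, at 0.656, 0.168 and 0.397 in 5d-U and at 15.8, 5.86 and 5.40 in F (log2 fold change 5.06 against 5d-U, adjusted p = 0.000164). Trf, the gene of the iron carrier transferrin, was at 55.8, 73.6 and 64.9 RPKM in 2+3d-C and at 2.63, 0.189 and 0.206 in 5d-U, with 56.6, 40.3 and 32.1 in F (6.00, adjusted p = 0.000465). Both genes were thus low in every uncompressed culture and near the fresh level after compression.

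Hmox1, which encodes the heme-degrading enzyme heme oxygenase 1 and is also induced by oxidative stress, was the most abundant of the list at 693, 1119 and 414 RPKM in 2+3d-C and at 398, 80.8 and 158 in 5d-U (1.81, adjusted p = 0.0332). Mif and Fam162a, a cytokine gene and a mitochondrial gene of which both are HIF targets, were lower, at −3.23 (adjusted p = 0.000422) and −3.05 (adjusted p = 0.00366). Mif stood at 49.8, 121 and 78.0 RPKM in 2+3d-C, at 516, 553 and 1253 in 5d-U and at 79.0, 43.1 and 46.1 in F. Higd1a and Bnip3l, named after their values were seen as further markers of low oxygen, were not called against 5d-U, at −1.23 (adjusted p = 0.0916) and −0.67 (adjusted p = 0.310).

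**Figure D4:**
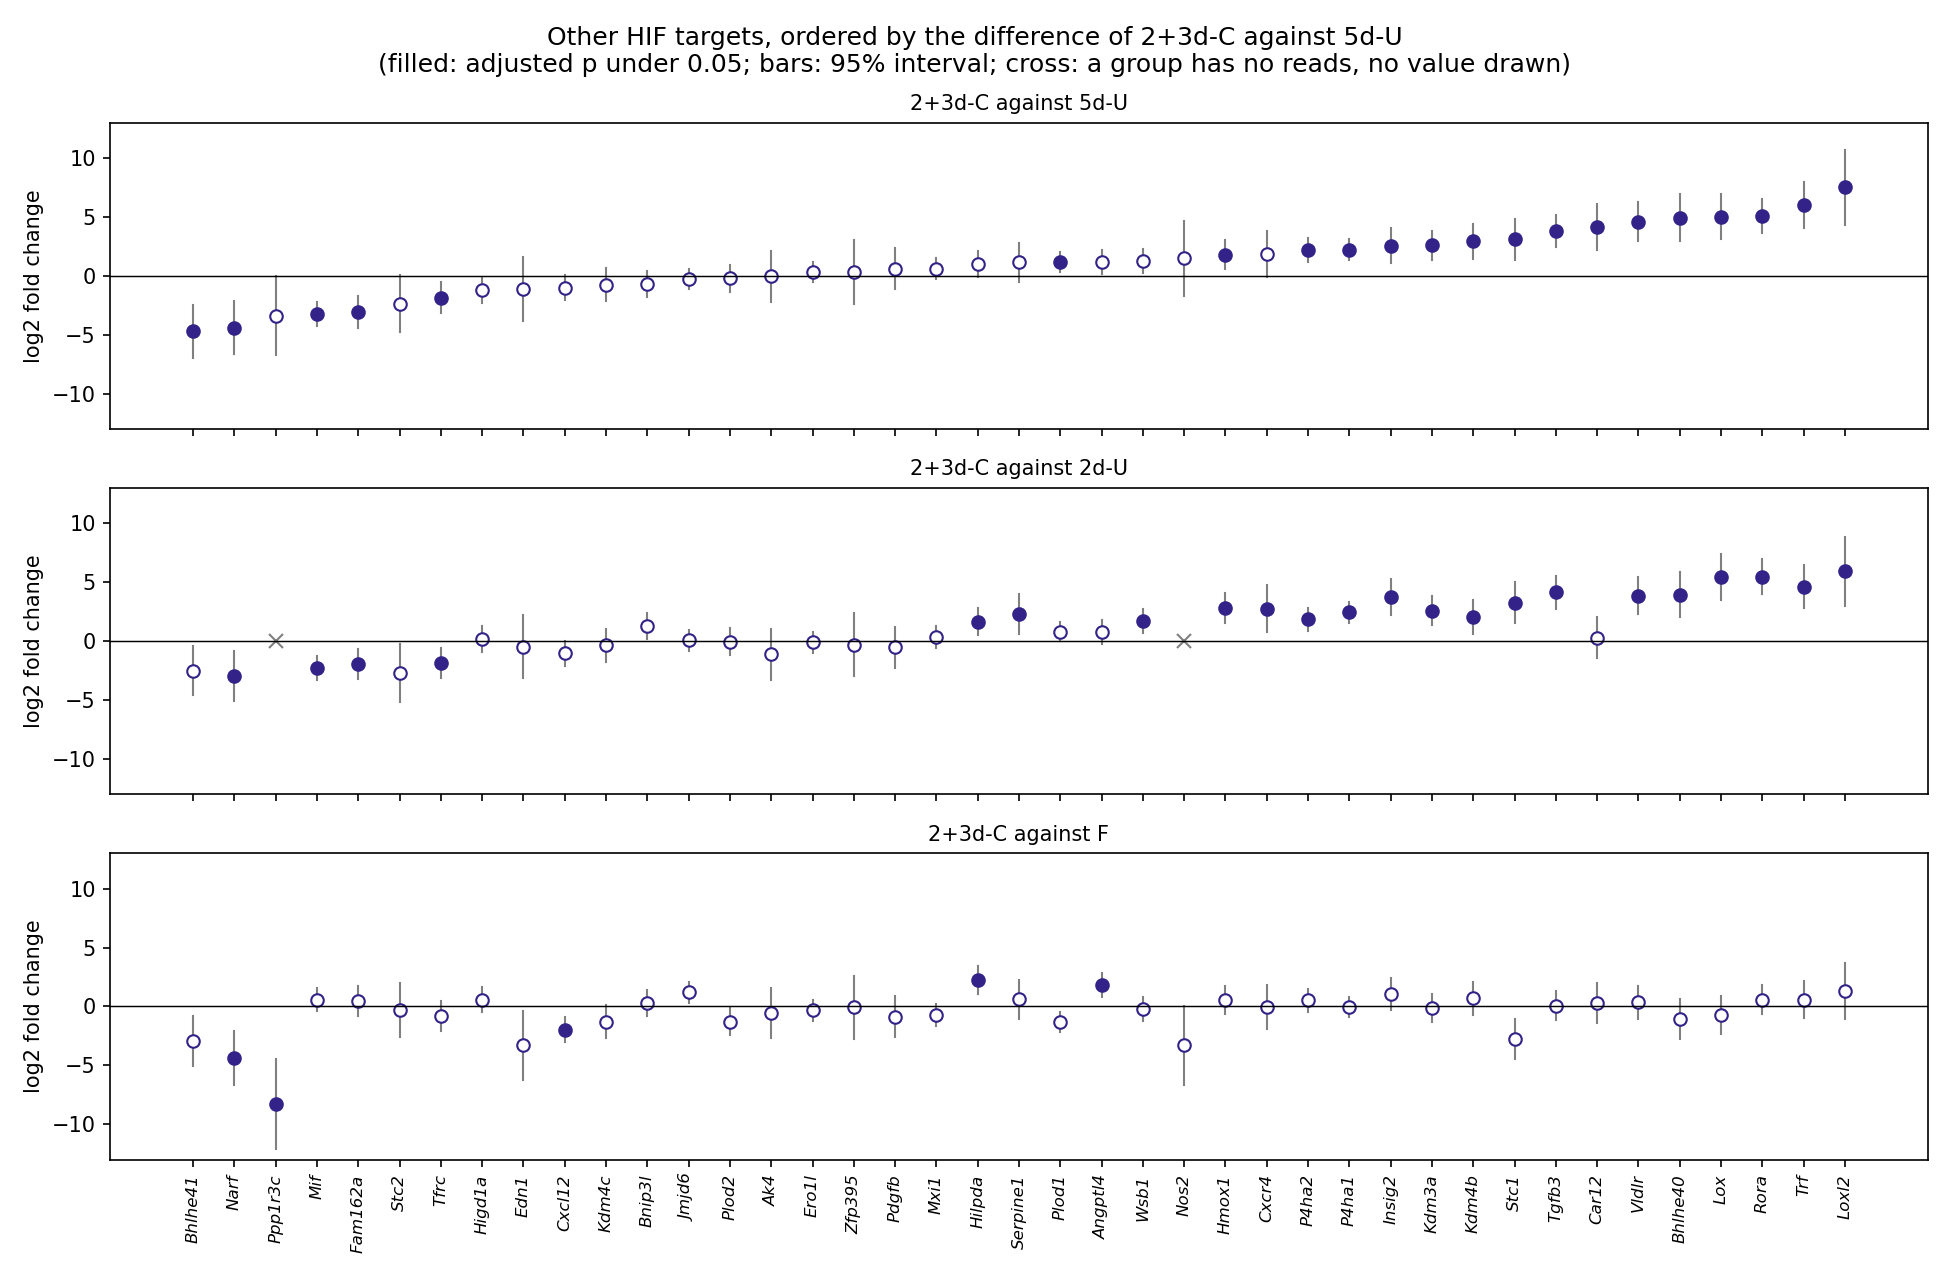
Log2 fold change (vertical axis) of the 41 other HIF targets tested in 2+3d-C against 5d-U, 2d-U and F, ordered by the first comparison; bars are 95% intervals, filled points have an adjusted p under 0.05 and crosses mark genes with no reads in 1 of the groups. 16 filled points lie above 0 and 5 below it in the first panel, and few points are filled against F.

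Genes that work beside the members moved in part. In the VEGF family, Vegfb fell by 3.04 on the log2 scale against 5d-U (adjusted p = 0.00127), to 1.83, 4.74 and 3.19 RPKM from 19.7, 27.7 and 32.5, while Vegfa rose. Flt1, a VEGF receptor gene, was higher (4.20, adjusted p = 0.00567), and 3 of the 10 genes of the family were higher and 1 lower, beside 9.14% and 13.4% of all genes tested. Flt1 and Kdr, the third of these higher genes, named after its values were seen, are receptors of endothelial cells; both were higher in every F library than elsewhere and at most 0.438 RPKM in the uncompressed cultures. The endothelial markers described later, Kdr among them, were low in the same cultures, and their part in this count was not tested. Of 7 genes of adrenomedullin and its receptors, 3 were higher and 1 lower, beside the same shares of all genes; Ackr3, the gene of an atypical receptor that takes up adrenomedullin and CXCL12, was at 289, 439 and 250 RPKM in 2+3d-C and at 26.4, 33.9 and 20.7 in 5d-U (3.59, adjusted p = 0.000196). Calcrl, the receptor of adrenomedullin, was called higher at 2.99 (adjusted p = 0.0112), though 2+3d-C replicate 5, at 0.792 RPKM, lay within the 5d-U range.

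Of 15 genes of mitophagy receptors and adaptors tested, Bnip3 included, 5 were higher and 2 lower, beside 9.14% and 13.4% of all genes tested. Pink1, which encodes the kinase that tags damaged mitochondria, was at 75.4, 96.7 and 94.2 RPKM in 2+3d-C and at 3.12, 11.4 and 9.33 in 5d-U (3.48, adjusted p = 0.000250), with 77.6, 93.2 and 64.4 in F. Sqstm1, the gene of the autophagy adaptor p62, was higher by 3.28 (adjusted p = 0.000167) and Gabarapl1 by 3.20 (adjusted p = 0.000157). Phb2, a mitochondrial inner membrane gene, was lower by −1.90 (adjusted p = 0.00467). Of 15 inhibitors of mTORC1, Ddit4 included, 1 was higher, Sesn2 at 2.42 (adjusted p = 0.00679), and 4 were lower, among them Akt1s1 at −2.23 (adjusted p = 0.00232), beside the same shares of all genes. Within the NDRG family Ndrg2 was higher with Ndrg1, at 3.39 (adjusted p = 0.00205) and 58.8, 113 and 80.9 RPKM, whereas Ndrg3 stayed at −0.34 (adjusted p = 0.637). Of 11 carbonic anhydrases tested, 2 were higher, Car4 at 7.84 (adjusted p = 0.00107) and Car12 at 4.13 (adjusted p = 0.00518), and 1 was lower, Car8 at −4.98 (adjusted p = 0.0320), beside the same shares.

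Lists of glucocorticoid targets and of ATF4 targets were read beside the members. Of 10 glucocorticoid targets, 8 were higher and 0 lower under compression than in 5d-U by edgeR (9 and 0 at an unadjusted p under 0.05), beside 9.14% and 13.4% of all genes tested; their summed level was 5824, 10256 and 6471 CPM in 2+3d-C, 7298, 5626 and 5177 in F and between 331 and 537 in the uncompressed cultures. Klf9 was higher by 6.13 (adjusted p = 1.51e-05) and Dusp1 by 5.38 (adjusted p = 3.00e-05). Of 19 genes of ATF4 and its targets in the integrated stress response, 9 were higher and 4 lower, beside the same shares, and the list went both ways. Atf3 was higher by 6.64 (adjusted p = 9.22e-06) and Cebpb by 5.35 (adjusted p = 5.39e-05). The 4 lower genes, named after their values were seen, make serine, glycine and asparagine: Phgdh at −4.68 (adjusted p = 8.82e-05), Asns at −4.06 (adjusted p = 0.000385), Psat1 at −2.56 (adjusted p = 0.00133) and Shmt2 at −1.99 (adjusted p = 0.00164). The part of these genes in the members' differences was not tested.

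The labelled cell type was checked against its markers. Counts of marker genes against 5d-U stand beside 9.14% of all genes tested that were higher and 13.4% that were lower. Of 10 MuSC markers, 7 were higher and 0 lower under compression than in 5d-U by edgeR, with 7 and 0 at an unadjusted p under 0.05. Myod1 was the most abundant over the 12 libraries. It stood at 2774, 4548 and 2235 RPKM in 2+3d-C and at 604, 949 and 1278 in 5d-U. The authors score cells with Pax7 but no MyoD protein as stem cells, and those with MyoD as progenitors or committed. Myod1 thus does not mark their stem cell state. Markers of several other cell types were also higher than in 5d-U, whereas 0 immune markers and 1 myofiber marker were. Against 2d-U, both of these lists had higher calls, given below. Of 10 endothelial markers, 7 were higher and 0 lower (9 and 0 at an unadjusted p under 0.05). Their summed level was 370, 383 and 325 CPM in 2+3d-C and 1283, 1848 and 2230 in F. It was at most 17.1 in 2d-U libraries, while 5d-U libraries had 48.7, 8.55 and 19.2. Pecam1 had the most CPM over the 12 libraries. In 2+3d-C, Pecam1 had 3399, 117 and 687 reads and Cldn5 had 3635, 1202 and 485. Cdh5, an endothelial junction gene named after its values were seen, had no reads in 3 of the uncompressed libraries and was at 2.60, 2.07 and 6.68 RPKM in 2+3d-C.

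Of 6 erythroid markers, 5 were higher and 0 lower, at 104, 318 and 27.4 CPM in sum in 2+3d-C, 684, 161 and 249 in F and at most 0.489 in every uncompressed culture, with Hbb-bs leading. Of 7 glial markers, 3 were higher and 0 lower, at 310, 613 and 191 CPM in 2+3d-C, 454, 783 and 657 in F and between 3.13 and 15.0 in the uncompressed cultures, with Mbp leading. Of 8 fibroadipogenic markers, 4 were higher and 0 lower. Their sum was 932, 1062 and 799 CPM in 2+3d-C, 2382, 6772 and 8206 in F and between 69.0 and 154 in the uncompressed cultures. Dcn led over the 12 libraries. In 2+3d-C, Dcn had 8216, 3633 and 4073 reads, Dpt 13253, 3113 and 4515, and Col3a1 24490, 726 and 7763. Pdgfra and Pi16, named after their values were seen, had only 454, 2 and 2 reads and 100, 0 and 3 reads there. Of 8 smooth muscle and pericyte markers, 6 were higher and 0 lower. Their sum was 734, 437 and 816 CPM in 2+3d-C and between 822 and 1132 in F. It was between 66.8 and 89.4 in 2d-U and at 64.1, 641 and 742 in 5d-U. Acta2 led over the 12 libraries. In 2+3d-C, Notch3 had 24431, 647 and 8215 reads and Acta2 had 7048, 2272 and 6038. The paper also measures Notch3 protein in MuSCs, so Notch3 is not particular to smooth muscle cells and pericytes.

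Among 10 immune markers, 0 were higher and 1 lower than in 5d-U, beside 9.14% and 13.4% of all genes tested. Against 2d-U, 3 were higher and 0 lower, beside 16% and 8.63%. Their sum was 79.2, 176 and 5.48 CPM in 2+3d-C, with Lyz2 leading, and at least 625 in F. The sum was 169, 1.47 and 7.34 CPM in 5d-U and at most 2.44 in 2d-U. The pan-leukocyte gene Ptprc had no reads in any compressed library, whereas Lyz2 had 1491, 582 and 114. Of 8 myofiber markers, 1 was higher and 3 were lower than in 5d-U, at 72.9, 211 and 73.4 CPM in 2+3d-C and at 165, 1917 and 3514 in 5d-U, with Acta1 leading. Against 2d-U, where their sum was between 52.3 and 89.9 CPM, 4 were higher and 0 lower, beside 16% and 8.63% of all genes tested. In sum, though not for each gene, endothelial, glial, erythroid and fibroadipogenic markers were thus higher in F and 2+3d-C than in the uncompressed cultures. F and 2+3d-C were also the groups in which Hif1a, Adm and Ndrg1 were high. The part of these markers in the members' differences was not tested.

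**Figure D5:**
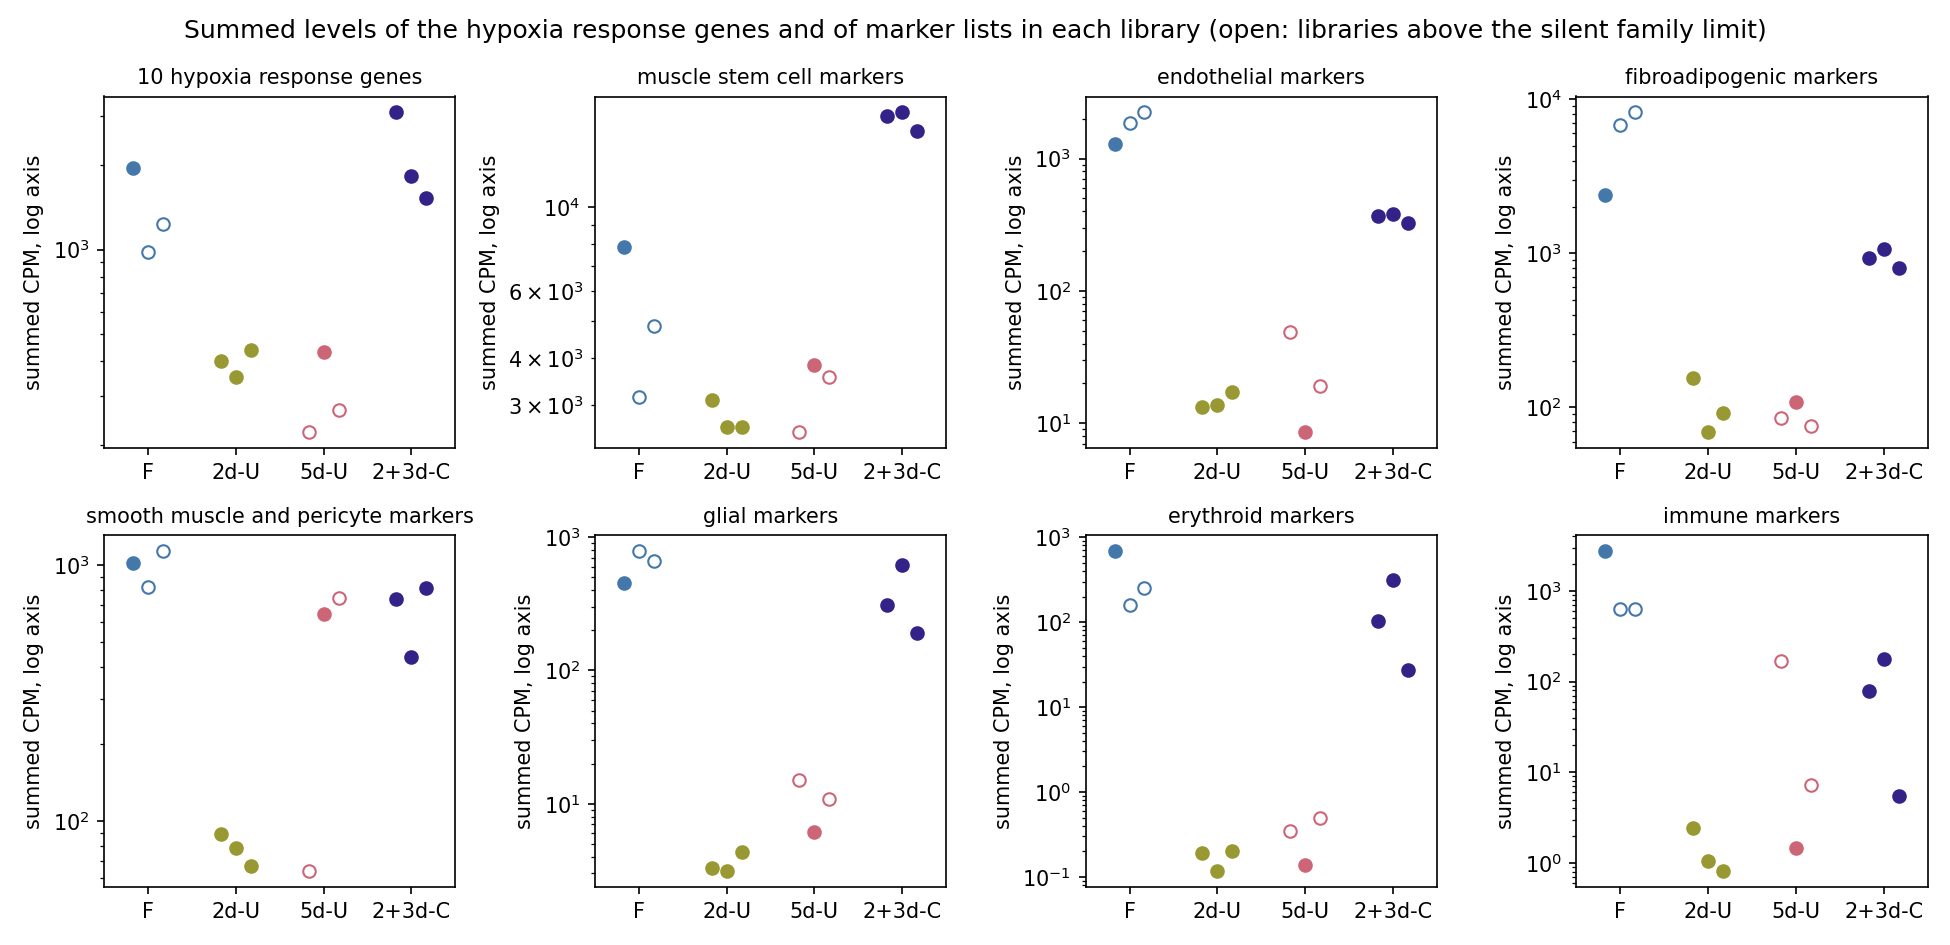
Summed CPM (vertical axis, log scale) of the 10 hypoxia response genes and of lists of cell type markers in each of the 12 libraries, by group; open points are the 4 libraries above the silent family limit. Endothelial, glial and erythroid markers are high in F and 2+3d-C and low in 2d-U and 5d-U, as is the sum of the 10 genes.

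The genes whose profiles over the 12 libraries were most like those of the members were found by the root mean square distance between log2 CPM profiles, each centred on its own mean, among the 10765 other genes that averaged 5 CPM or more. Ndrg1, whose log2 CPM had an SD of 3.85, was closest to Pde4b at a distance of 0.80, A730049H05Rik at 0.83 and Klf9 at 0.84. Egln3, with an SD of 2.79, was closest to Dusp14 at 0.54. Hif1a was closest to Csgalnact2 at 0.35, Vegfa to Tfe3 at 0.25 and Adm to Slc22a21 at 0.50. For Bnip3, with an SD of 1.07, the closest gene, Nsdhl, was at 0.55, and for Egln1, with an SD of 0.95, Ube2q1 was at 0.43. For Ddit4, with an SD of 1.94, Cgnl1 was at 0.80. Ankrd37 and Car9 were below 5 CPM and were not compared. No other member was among the 3 genes closest to any member.

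By position, the members lie on 7 chromosomes in mm10, and the counting did not use strand, so reads of an overlapping gene cannot be told apart from theirs. The exons of Ankrd37 (chr8:45996902-46005707) shared 26.4% of their bases with Ufsp2 and Lrp2bp, those of Bnip3 (chr7:138890836-138909519) 22.3% with Gm45507, and those of Ndrg1 (chr15:66929318-66969640) 8.43% with Gm17035 and Gm2895. Hif1a (chr12:73901375-73947530) shared 8.11% and Car9 (chr4:43506966-43513729) 9.29%. Vegfa (chr17:46016993-46032369), Adm (chr7:110627661-110629820), Egln1 (chr8:124908587-124949324), Egln3 (chr12:54178981-54203860) and Ddit4 (chr10:59949669-59951834) shared none.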

How the data were processed

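The authors sorted ZsGreen-positive cells, made SMART-seq v4 libraries and sequenced single-end reads; the deposited files hold raw read counts per gene, per the file headers from featureCounts 1.6.4 over GENCODE exons of mm10, without strand and without reads that map to several places. The 12 single-library tables were used here, and a merged table was not used. Samples were grouped by the treatment in the labels. Tests were run with edgeR 4.0.16 under R 4.3.3 (filterByExpr, TMM, glmQLFit, glmQLFTest, two-sided, Benjamini-Hochberg over 22635 genes, threshold 0.05), and the procedure was tested on simulated data. RPKM used all exon bases of a gene; log2 CPM used a prior count of 2. A count of 3 reads was taken as the limit of detection, and limits cover counting error only. With 3 libraries per group an exact permutation test of single values cannot go below p = 0.1, so it was not used.

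The 10 genes, the lists and the tests were chosen with earlier results of these data known. Genes were named from a rule that took in the 10 genes, genes of the HIF subunit and oxygen sensing list, and of each other list the 3 with the highest mean RPKM and the 3 with the smallest p in 2+3d-C against 5d-U; not all genes of the rule are printed, and the choice among them was made after their values were seen, as was that of the names said to lie outside it. Lists are described by counts and medians, with no set test. Alternatives were DESeq2 1.42.0, no TMM, no filter on low counts, a mean of at least 5 CPM, no mitochondrial genes, fits of 2 groups, a replicate block, silent family reads subtracted or fitted as a term, and each library left out. Leaving out all 4 libraries with silent family reads was added after seeing the data.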

Additional observations from a re-analysis of the deposited data

How the results depend on the processing

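Of the 10 genes, Ndrg1 was called against 5d-U in all 22 alternative fits, Adm and Egln3 in 21 each, and Hif1a and Vegfa in 20 each. Leaving out any 1 library kept all 5 of these calls. Without the 4 libraries with silent family reads, which leaves F and 5d-U with 1 library each whose spread is taken from the other groups, 2 members were called in 2+3d-C against 5d-U (Ndrg1 and Adm), where 421 of 19286 genes were higher and 717 lower, 3 in 2d-U against F and 0 in 5d-U against F. A term for these libraries left 3 members called in 2d-U against F, with calls for 1271 of 22635 genes upward and 3873 downward. In 2+3d-C against F, where edgeR called 0, DESeq2 called 1 member (824 genes higher and 4262 lower of 49515), no filter on low counts 2 (554 and 2240 of 49901), and leaving out 1 library between 0 and 1, the 1 without F replicate 1 (1185 and 8878 of 27750). In 5d-U against 2d-U, DESeq2 (3009 and 389 of 49515) and a fit of the 2 groups alone (479 and 289 of 14548) each called 1 member, Vegfa, and leaving out 1 library gave between 0 and 1, the 1 being Egln1 without 5d-U replicate 2 (771 and 50 of 27076). Deviations of same-numbered libraries correlated between −0.42 and 0.03. Differently numbered libraries were not set beside them, so these values cannot tell whether same-numbered libraries share a sort. The paper states that each sorted batch was spread at random over the conditions. A replicate block changed the members called to 3 in 2+3d-C against 5d-U, 3 against 2d-U and 2 against F, to 4 in 2d-U against F, with Adm lost (588 genes higher and 2151 lower), and to 2 in 5d-U against F. Adm and Vegfa lost their calls against 5d-U, where 728 of 22635 genes were higher and 3098 lower, and Adm and Egln1 theirs against 2d-U, where 1090 were higher and 836 lower. Against F the block called 270 genes higher and 1690 lower, and in 5d-U against F 432 and 829. Under the block 1 HIF target of glucose metabolism was higher than in 5d-U and 3 lower, and of the other HIF targets 5 and 1, and Ankrd37 turned to 1.06. Ankrd37 was at 0.15 without the 4 libraries and ranged from −1.28 to 0.44 with 1 library left out. Egln1 ranged from −1.17 to 0.069 in the same way, and Ddit4 from −0.88 to 0.15, with 0.39 under the term for the 4 libraries and −2.63 under the block. Except where a value shows it, the cause of these changes was not tested. Car9 had 0 to 58 reads in a library. The parts of depth and of spread between libraries in its wide interval were not tested.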
